A study of Rattus norvegicus with 12 samples.

Results

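The genes of NF-κB and its feedback inhibitors were examined in cultured FLS (fibroblast-like synoviocytes, the fibroblasts of the joint lining) treated with TCDCA (taurochenodeoxycholic acid, a taurine-conjugated bile acid). Genes were chosen by symbol, with earlier results of these data known. They were the 4 subunits Nfkb1, Nfkb2, Rela and Relb, the 1 kinase Ikbkb, and 5 genes grouped as inhibitors. These 5 were Nfkbia, Nfkbib, Nfkbie, Nfkbiz and Tnfaip3, although Nfkbiz encodes a nuclear protein that modifies which NF-κB targets are transcribed. Of the 22442 gene records deposited, 11 carried one of these 10 names. Nfkbiz had 2 records, and the record of the higher mean was used. Levels are given in FPKM, a count of sequenced fragments scaled by gene length and library size. Records whose mean reached 1 FPKM over the libraries were tested, which left 11611 records and kept all 10 genes.

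The 12 libraries came from male Sprague Dawley rats with adjuvant arthritis (AA), an arthritis raised by injection of complete Freund's adjuvant. The FCA group was cultured in DMEM without TCDCA, and the AT01, AT1 and AT10 groups received 0.1, 1 and 10 µM TCDCA for 12 h, with 3 libraries in each group. All 4 groups, the control included, were third-passage cells from AA rats, and no cells of healthy rats were among them. The study calls the replicate numbers repeats of the experiment, but neither it nor the labels say whether the libraries of a group came from separate rats or cultures. Hence p-values measure only the spread between these libraries, which may be technical.

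NF-κB is a family of dimeric transcription factors. In resting cells, IκB proteins hold the dimers in the cytoplasm. An inflammatory signal activates the IκB kinase, which marks IκB for breakdown, and the freed dimers enter the nucleus. There they switch on inflammatory genes and, at the same time, the genes of their own inhibitors, which closes a feedback loop. In arthritic synovium this pathway is known for driving cytokines, chemokines and matrix-degrading enzymes of the fibroblasts. The activity of NF-κB is controlled largely at the protein level, and RNA-seq measures only the transcripts.

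Sequences are shown for the members whose promoters held a κB motif, the DNA letters that NF-κB dimers bind, because the feedback loop runs through such letters in the genes of the inhibitors. RefSeq promoter windows of the GRCr8 build, from 250 bases before to 50 bases after the gene start, were matched by symbol for 8 of the 10 members, and Relb and Ikbkb were not matched. A motif of the half-sites GGGA and TTCC with any 2 bases between them, searched on both strands, was present in 5 of the 8 windows and in 435 of all 33469 windows of the same length (1.3%). A like motif that opens with GGGG was present in 2 of the 8, Nfkbie and Tnfaip3, and in 437 of all windows (1.31%). The motifs were chosen after the windows had been seen, so the counts are a description. The 30 bases around each match follow, read along the strand of the gene, with the 10 matching letters in capitals.
Nfkb1, chr2:226805440-226805469, minus strand: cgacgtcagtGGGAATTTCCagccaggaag
Nfkb2, chr1:255108344-255108373, plus strand: tggtattttcGGGACTTTCCtaagagcact
Nfkbia, chr6:78597084-78597113, minus strand: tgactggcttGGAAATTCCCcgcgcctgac
Nfkbiz, chr11:58251698-58251727, plus strand: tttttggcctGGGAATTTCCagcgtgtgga
Tnfaip3, chr1:15544027-15544056, minus strand: tcacgtgactGGAAAGTCCCtcggaaatcc
Nfkbie, chr9:22948017-22948046, minus strand: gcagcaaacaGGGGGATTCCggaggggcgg
The matches began 20 bases before the start of Nfkb2, 31 before Nfkbia, 13 before Nfkbiz, 67 before Tnfaip3 and 164 before Nfkbie, and at base 4 of Nfkb1. Nfkb1, Nfkbia and Nfkbiz held the same letters, GGGAATTTCC on one strand or the other, which 0.0747% of all windows held. Nfkb2 and Tnfaip3 held GGGACTTTCC, present in 0.111% of all windows. Tnfaip3 also held GGGGATTTCC, present in 0.0717% of all windows, and was the only member with matches to both motifs. Its 250 bases before the start are shown because both matches lie close together there, in capitals.
Tnfaip3, chr1:15543980-15544229, minus strand: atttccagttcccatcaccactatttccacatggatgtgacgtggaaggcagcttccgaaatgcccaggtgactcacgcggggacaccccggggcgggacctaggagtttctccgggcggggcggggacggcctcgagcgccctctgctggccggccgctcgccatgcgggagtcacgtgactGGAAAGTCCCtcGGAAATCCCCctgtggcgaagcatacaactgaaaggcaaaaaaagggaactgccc
The windows of Rela and Nfkbib held neither motif. A match is a description of the sequence and not a measured binding site.

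Averaged over the 12 libraries, Nfkbia was the most abundant member at 21.1 FPKM, followed by Nfkb1 at 19.4, Nfkb2 at 15.8, Rela at 15.5, Nfkbib at 14 and Nfkbiz at 13.9 FPKM. Neighbours in this order overlapped in their ranges over the libraries. Ikbkb had a mean of 9.18 FPKM, Relb 4.25 FPKM and Nfkbie 3.56 FPKM, and Tnfaip3 was lowest at 1.44 FPKM. The highest Relb library (5.99 FPKM) lay below the lowest Ikbkb library (7.46 FPKM), and the highest Tnfaip3 library (2.57 FPKM) lay below the lowest Nfkbie library (2.98 FPKM), so these 2 steps exceeded the spread between libraries. Nfkbia stood above 79.7% of the records tested in mean level, and Tnfaip3 above 7.97% of them. The study reports the total reads of each library, which differed, but no read counts per gene accompany the FPKM values. The counts behind each value are therefore unknown, and Tnfaip3 and Nfkbie rest on low values.

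**Figure D1:**
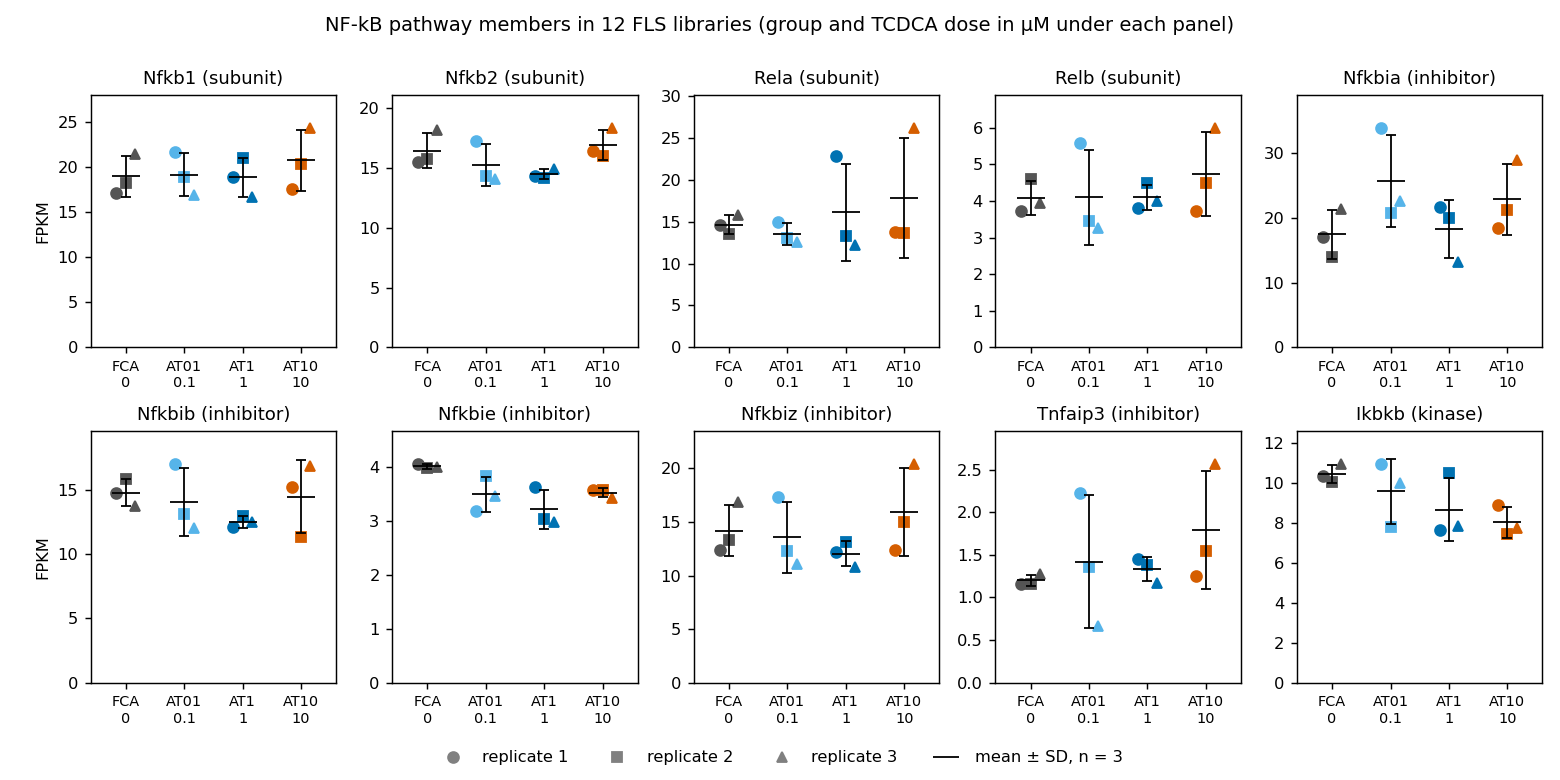
FPKM of the 10 members (1 panel each, with its own axis from 0) in the 3 libraries of FCA, AT01, AT1 and AT10, with the mean and SD of each group in black and a marker shape for the replicate number. Nfkbie lay at 3.97 to 4.06 FPKM in FCA and below this in all 9 TCDCA libraries, whereas AT10 replicate 3 and AT01 replicate 1 carried the highest values of most other members.

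None of the 10 members passed an adjusted p under 0.05 in any comparison (limma on log2(FPKM + 1), Benjamini-Hochberg adjustment over all records). The share of all records that passed was 0.172% for AT10, 0.0947% for AT1, 0.0947% for AT01 and 0.0258% for the 9 TCDCA libraries pooled, each against FCA. The study's own rule asks for a log2 fold change beyond 1 in either direction with an unadjusted p under 0.05. The study applied it to Ballgown results, whereas here it was applied to the limma values on log2(FPKM + 1). Applied so, it was met by 0 members, against 0.706% of all records in AT10, 0.62% in AT1, 0.758% in AT01 and 0.491% in the 9 libraries together. At an unadjusted p under 0.05 stood 1 member in AT10 against a background of 11.9%, 2 members in AT1 against 11%, 0 members in AT01 against 6.6%, and 1 member in the 9 TCDCA libraries together against 12%. Each count lay within 1 gene of what the share of all records gives for 10 genes.

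Of the 30 comparisons of a member with FCA at a single dose, all but 1 had a 95% interval within -1 to 1 on the log2 scale, that is, without a change of double or more on the scale of FPKM + 1. The exception was Nfkbia in AT01, whose interval ran from -0.05 to 1.09. These bounds hold on the scale of FPKM + 1, which understates the change of a low gene. With a pseudocount of 0.1, 27 of the 30 intervals lay within -1 to 1, and those of Tnfaip3 reached 1.16 in AT10 and 1.11 in AT01. The median log2 fold change over the 10 members was 0.129 for AT10, -0.088 for AT1 and -0.076 for AT01, beside -0.009, 0.016 and 0.002 over all records tested, and 7, 4 and 3 of the 10 members had a value above 0, with Relb in AT1 at 0.00 counted among them. Over all records 48.2%, 53.2% and 50.3% were above 0. The AT10 median rested on replicate 3, without which it was -0.03 with 4 of 10 members above 0. With each library left out in turn, controls included, the median ran from -0.03 to 0.256 for AT10 (highest without AT10 replicate 1), from -0.172 (without AT1 replicate 1) to -0.053 (without FCA replicate 3) for AT1, and from -0.187 (without AT01 replicate 1) to 0.034 (without AT01 replicate 3) for AT01.

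**Figure D2:**
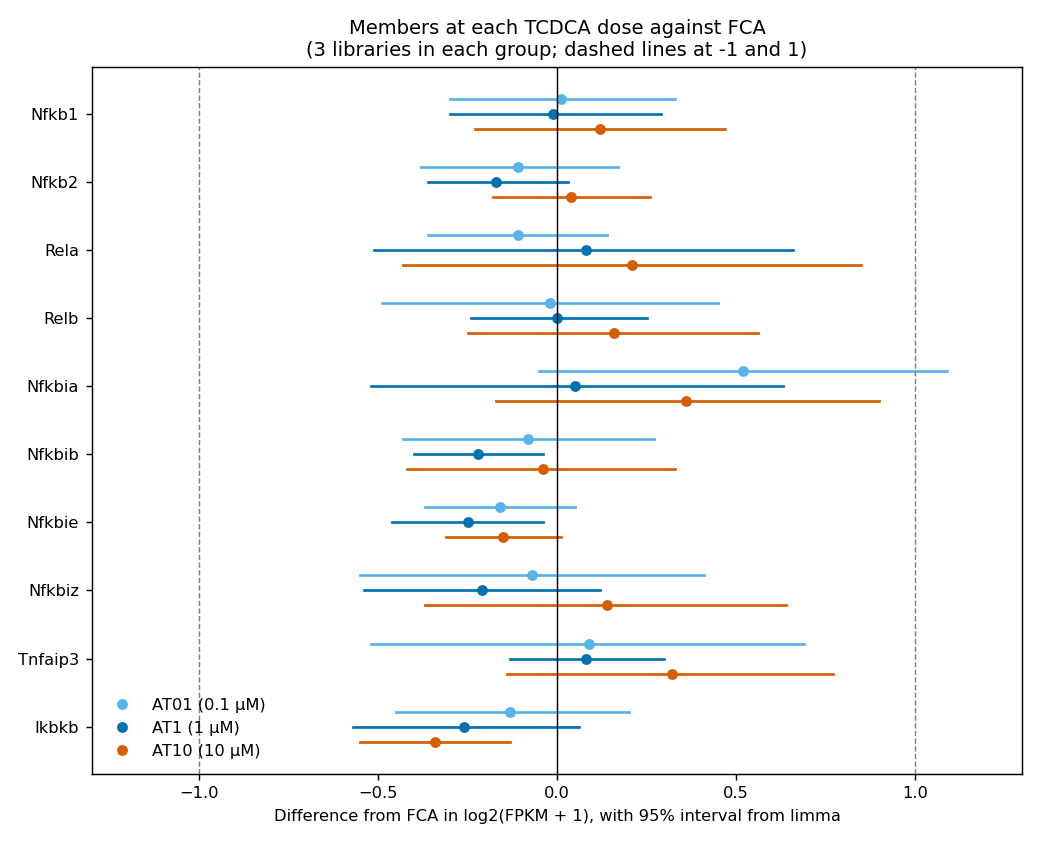
Difference from FCA in log2(FPKM + 1) for each member at 0.1, 1 and 10 µM TCDCA (points) with the 95% interval from limma (lines), 3 libraries in each group, and dashed lines at -1 and 1. Only the upper bound of Nfkbia in AT01, at 1.09, passed a dashed line, and the intervals of Nfkbie and Nfkbib in AT1 and of Ikbkb in AT10 lay below 0.

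Among the subunits, Nfkb1 encodes the precursor p105 and its product p50, which pairs with RelA in the canonical dimer. Nfkb1 had 17.11, 18.24 and 21.40 FPKM in FCA, 21.61, 18.86 and 16.88 in AT01, 18.84, 20.97 and 16.63 in AT1, and 17.58, 20.27 and 24.26 in AT10. The 4 groups overlapped, and the differences from FCA were 0.01 in AT01 (adjusted p = 0.989 from limma), -0.01 in AT1 (0.988) and 0.12 in AT10 (0.736), with standard errors of 0.12 to 0.14 on the log2 scale. The AT10 value rested on AT10 replicate 3, without which it was 0.00.

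Rela encodes p65, the subunit that carries the activation domain of the canonical dimer. Its FPKM was 14.62, 13.53 and 15.85 in FCA, 14.96, 13.09 and 12.53 in AT01, 22.80, 13.33 and 12.22 in AT1, and 13.77, 13.68 and 26.17 in AT10. AT1 replicate 1 and AT10 replicate 3 stood apart from the other 10 libraries, which lay between 12.22 and 15.85 FPKM. In AT10 the difference from FCA was 0.21 on the log2 scale, and -0.09 once replicate 3 was left out. In AT1 it was 0.08, and -0.18 once replicate 1 was left out. In AT01, where no library stood apart, it was -0.11 with an adjusted p of 0.825.

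Nfkb2 encodes p100 and p52, and Relb their usual partner, which form the dimer of the noncanonical pathway. Nfkb2 had 15.48, 15.75 and 18.16 FPKM in FCA, 17.29, 14.38 and 14.09 in AT01, 14.36, 14.19 and 14.97 in AT1, and 16.41, 16.05 and 18.35 in AT10. All 3 AT1 libraries lay below every FCA library and below every AT10 library. The difference from FCA was -0.17 (standard error 0.08, limma adjusted p = 0.467), and the exact permutation p was 0.1, the smallest possible with 3 libraries against 3. The difference of AT10 from AT1 was 0.21 (standard error 0.07, unadjusted p = 0.0291, adjusted p = 0.748). Relb had 3.72, 4.61 and 3.94 FPKM in FCA, 5.58, 3.46 and 3.25 in AT01, 3.82, 4.48 and 4 in AT1, and 3.72, 4.49 and 5.99 in AT10. Its groups overlapped, and its 2 highest libraries belonged to the highest and the lowest dose.

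Nfkbia encodes IκBα, the inhibitor that NF-κB induces most quickly and that ends its activity. Nfkbia had 17.10, 13.93 and 21.45 FPKM in FCA, 33.86, 20.80 and 22.58 in AT01, 21.75, 19.95 and 13.25 in AT1, and 18.40, 21.23 and 28.92 in AT10. Among the TCDCA libraries, 4 of 9 were above the FCA range and 1 was below it. The log2 fold change against FCA was 0.52 in AT01 (standard error 0.23, adjusted p = 0.72 from limma), 0.05 in AT1 (standard error 0.23, adjusted p = 0.938) and 0.36 in AT10 (standard error 0.22, adjusted p = 0.538). Without AT01 replicate 1 it was 0.31 in AT01, and without AT10 replicate 3 it was 0.19 in AT10. Over the 9 TCDCA libraries it was 0.31 (95% interval -0.16 to 0.79, exact permutation test p = 0.195), and 0.17 without both of these libraries.

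Nfkbie encodes IκBε, an inhibitor of the same family that responds more slowly. Nfkbie had 4.06, 3.97 and 4 FPKM in FCA, 3.19, 3.83 and 3.46 in AT01, 3.63, 3.03 and 2.98 in AT1, and 3.58, 3.57 and 3.42 in AT10. It was the only member for which all 9 TCDCA libraries lay below every FCA library, a pattern that 1.9% of all records shared. The mean was 4.01 ± 0.0458 FPKM (SD, n = 3) in FCA, 3.49 ± 0.321 in AT01, 3.21 ± 0.362 in AT1 and 3.52 ± 0.0896 in AT10. The log2 fold change of the 9 TCDCA libraries against FCA was -0.19 (standard error 0.07, unadjusted p = 0.0151, limma adjusted p = 0.339), with an exact permutation p of 0.00909, and it did not pass over all records. By dose it was -0.16 in AT01, -0.25 in AT1 and -0.15 in AT10, with adjusted p-values of 0.763, 0.428 and 0.437. The AT1 values were not distinguishable from those of AT10 or AT01, with differences of 0.11 (95% interval -0.11 to 0.32) for AT10 against AT1 and -0.09 (-0.35 to 0.16) for AT1 against AT01.

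Nfkbib encodes IκBβ, a further member of the IκB family. Its FPKM was 14.77, 15.86 and 13.74 in FCA, 17.04, 13.10 and 12.04 in AT01, 12.08, 12.94 and 12.48 in AT1, and 15.24, 11.34 and 16.84 in AT10. All 3 AT1 libraries lay below FCA, a log2 fold change of -0.22 (standard error 0.07, unadjusted p = 0.0228, adjusted p = 0.428 from limma). In AT01 and AT10 the libraries lay on both sides of the FCA values.

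Nfkbiz encodes IκBζ, a nuclear protein that modifies which NF-κB targets are transcribed. Its FPKM was 12.39, 13.34 and 16.85 in FCA, 17.34, 12.32 and 11.11 in AT01, 12.22, 13.09 and 10.81 in AT1, and 12.36, 14.99 and 20.45 in AT10. The groups overlapped at every dose, and AT10 replicate 3 and AT01 replicate 1 were again the 2 highest libraries. Tnfaip3 encodes A20, a ubiquitin-editing enzyme that shuts down signalling upstream of the IκB kinase. Tnfaip3 had 1.16, 1.16 and 1.28 FPKM in FCA, 2.23, 1.36 and 0.67 in AT01, 1.45, 1.38 and 1.17 in AT1, and 1.25, 1.55 and 2.57 in AT10. Among the TCDCA libraries, 6 of 9 were above the FCA range, and the log2 fold change was 0.16 (95% interval -0.24 to 0.56, adjusted p = 0.739 from limma), or 0.03 without AT10 replicate 3 and AT01 replicate 1.

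Ikbkb encodes IKKβ, the kinase that phosphorylates the IκB proteins. Ikbkb had 10.34, 10.05 and 10.97 FPKM in FCA, 10.94, 7.78 and 10.01 in AT01, 7.63, 10.49 and 7.86 in AT1, and 8.91, 7.46 and 7.74 in AT10. All 3 AT10 libraries were under the FCA range. The log2 difference was -0.34 (standard error 0.08, unadjusted p = 0.00739, limma adjusted p = 0.231), with an exact permutation p of 0.1. It was -0.26 in AT1 and -0.13 in AT01, with limma adjusted p-values of 0.476 and 0.835. The AT01 value rested on AT01 replicate 2, without which it was 0.00, and 7 of the 9 TCDCA libraries lay below every FCA library. This adjusted p in AT10 was the lowest of any member in the 3 comparisons of a dose with FCA. The means were 10.5 FPKM in FCA, 9.58 in AT01, 8.66 in AT1 and 8.04 in AT10, and neighbouring groups in this order overlapped.

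Counted by overlap, 2 members (Nfkbie and Ikbkb) did not overlap between AT10 and FCA, where 19.9% of all records did not, 3 members (Nfkb2, Nfkbib and Nfkbie) between AT1 and FCA, against 19.9%, and 1 member (Nfkbie) between AT01 and FCA, against 14%. In each of these the TCDCA libraries were lower, a direction that 9.18% of all records showed in AT10, 10% in AT1 and 8.06% in AT01. Groups did not overlap for 1 member, Nfkbie, when the 9 TCDCA libraries were pooled, against 2.86% of all records. These 3 comparisons share the FCA libraries. Between doses, 0 members passed an adjusted p under 0.05 in AT10 against AT1 (0.258% of all records), AT10 against AT01 (0.0689%) and AT1 against AT01 (0.129%). At an unadjusted p under 0.05, only Nfkb2 in AT10 against AT1 stood out, beside 6.46% of all records, while the other two pairs of doses had 0 members, beside 4.97% for AT10 with AT01 and 3.43% for AT1 with AT01. Nfkb2 was also the 1 member without overlap between AT10 and AT1 (13.9% of all records), with 0 members for AT10 with AT01 (11.1%) and for AT1 with AT01 (8.6%). A limma F test over the 4 groups gave 0 members under an adjusted p of 0.05 and 0 under an unadjusted p of 0.05, beside 0.0431% and 8.57% of all records, and its lowest value was that of Nfkbie (unadjusted p = 0.0607, adjusted p = 0.594). The 4 groups held 65.3% of the variance of Nfkbie between libraries, 45.8% of that of Nfkb2 and 45.5% of that of Ikbkb, but 10.8% to 38.3% of that of the other 7 members. The median was 24.0% over the members and 30.2% over all records.

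For 9 of the 10 members, all but Nfkbie, more of the spread lay within the groups than between them, as it did at the median of all records. AT10 replicate 3 had the highest value of 6 members and the second highest of 2 more, whereas it was first or second in 22% of all records tested. AT01 replicate 1 had the highest value of 2 members and was first or second in 7 of the 10, against 24.6% of all records. For 6 members, Nfkb1, Relb, Nfkbia, Nfkbib, Nfkbiz and Tnfaip3, these were the 2 highest libraries of the 12, which held for 3.22% of all records. They were chosen after their values had been seen, so these counts describe the libraries and are not tested. Of the 6, Nfkb1, Nfkbia, Nfkbiz and Tnfaip3 held a motif, as did most of the 8 members with a window. Whether a motif went with this pattern was not tested. The 6 also included Nfkbib, whose window held neither motif, and Relb, which had no window matched. They left out Nfkb2 and Nfkbie, which held a motif. Nfkb2 had AT10 replicate 3 at rank 1 and AT01 replicate 1 at rank 3. Nfkbie had AT10 replicate 3 at rank 9 and AT01 replicate 1 at rank 10, and Ikbkb had AT10 replicate 3 at rank 10 and AT01 replicate 1 at rank 2.

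**Figure D3:**
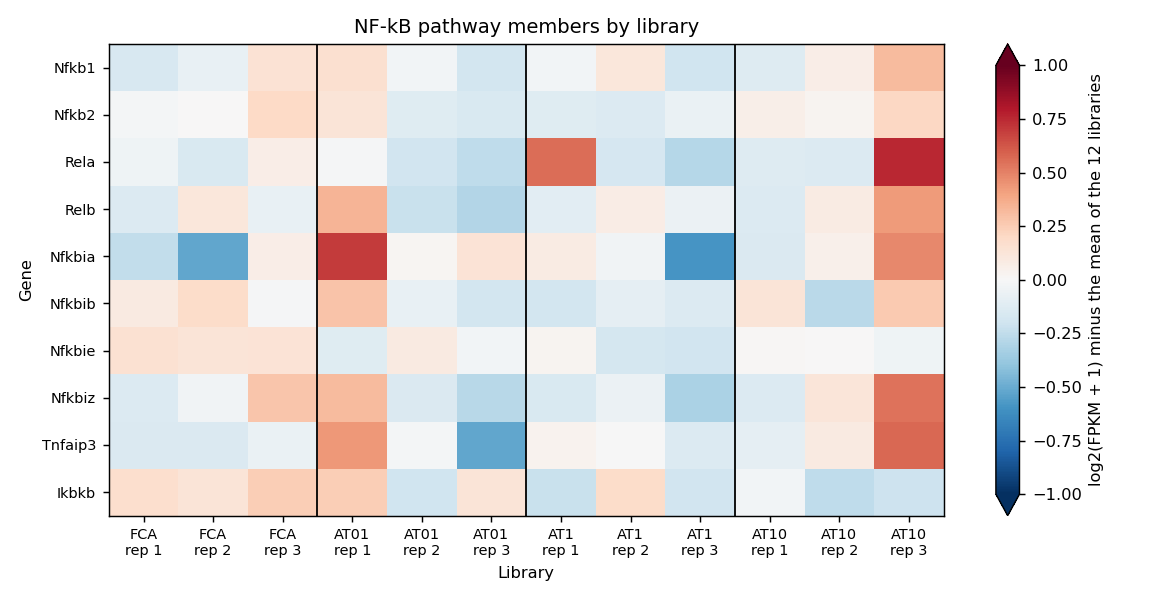
Each member (rows) in each of the 12 libraries (columns, ordered by dose, with black lines between groups), coloured by log2(FPKM + 1) minus its mean over the 12 libraries. AT10 replicate 3 and AT01 replicate 1 are red for 8 and 8 of the 10 members, while Nfkbie is above its mean in all 3 FCA libraries.

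The median deviation of the 10 members from their own means was 0.372 in AT10 replicate 3 and 0.262 in AT01 replicate 1 on the log2 scale, and it lay between -0.19 and 0.101 in the other 10 libraries. Over all records it was 0.018 and 0.03 in these 2 libraries. FPKM is scaled by library size, so this median could not show a shift of the whole library. Some markers of the fibroblast and smooth muscle lists were low in the same 2 libraries. Of the 10 fibroblast markers, Col1a1, Col3a1 and Prg4 had their 2 lowest values there, and of the 5 smooth muscle markers, Acta2 and Smtn did. The other 10 markers, among them Dcn and Des, did not. Dcn ranked 11 and 9 from the lowest in AT10 replicate 3 and AT01 replicate 1. The share of all records with their 2 lowest values in these libraries was not computed. Col1a1, the main chain of type I collagen, had 571.15 FPKM in AT10 replicate 3 and 720.79 in AT01 replicate 1, with 732.38 to 1071.96 in the others. Acta2, the smooth muscle actin of myofibroblasts, had 125.35 and 184.54 FPKM there and 216.09 to 370.12 in the others. Des had 12.9 and 15.84 FPKM there, within its range of 7.76 to 21.82 in the others. The part of these differences between the libraries in the values of the members was not tested.

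Most members varied together over the 12 libraries, but Nfkbie and Ikbkb did not follow the others. Pearson's r of log2(FPKM + 1) was above 0 in 39 of the 45 combinations of 2 members, with a median of 0.48, beside a median of 0.007 over all combinations of records tested. It reached 0.7 in 8 of the 45 combinations (17.8%) and in 1.45% of those of all records. It was highest for Nfkb1 with Nfkbiz (0.92), Relb with Tnfaip3 (0.87) and Nfkb2 with Nfkbiz (0.86). Without AT10 replicate 3 and AT01 replicate 1 the median fell to 0.24, and these 3 values became 0.83, 0.55 and 0.75. The median of all records without these libraries was not computed. Over the 12 libraries, Nfkbie had r from -0.33 (with Relb) to 0.17 (with Nfkb2). Ikbkb had r from -0.32 (with Rela) to 0.38 (with Nfkbib). Every negative value involved Nfkbie or Ikbkb. The points are 12 libraries in 4 groups and the genes of a library share its preparation and depth, so these values are descriptions.

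Over all records, the genes whose pattern was most like that of Nfkb1 were Nfkbiz (r = 0.922 over 12 libraries), LOC100910854 (0.913) and Igsf9b (0.913). The member Nfkbiz thus ranked first among all named records. Those most like Nfkbia were Pygl (0.93), Fam161a (0.914) and Rgsl1 (0.907). All 6 of these values were lower without AT10 replicate 3 and AT01 replicate 1, between 0.79 and 0.893.

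The other genes of the pathway, upstream adaptors, kinases and regulators, were described by a list of 36 genes, of which 34 had a record and 31 were tested. In AT10, AT1 and AT01 against FCA, 0 of the 31 passed an adjusted p under 0.05 with limma, while 5, 4 and 1 had an unadjusted p under 0.05, beside the 11.9%, 11% and 6.6% of all records. Their median log2 fold change was -0.051, 0.031 and -0.016, and that of all records was -0.009, 0.016 and 0.002. Ikbkg, which encodes the scaffold NEMO of the IκB kinase, had 1.21, 1.68 and 2.26 FPKM in FCA and 2.05 to 3.06 in the 9 TCDCA libraries, 7 of which exceeded every FCA library (log2 fold change 0.40, standard error 0.12, adjusted p = 0.306). Itch, a ubiquitin ligase that works with A20, had 11.21, 9.91 and 7.84 FPKM in FCA and 12.74, 13.61 and 13.85 in AT10 (log2 fold change 0.45, adjusted p = 0.296). Tax1bp1, an adaptor of A20, had 34.71, 33.72 and 42.65 FPKM in FCA and 45.66, 50.49 and 50.55 in AT1 (log2 fold change 0.40, adjusted p = 0.42). Sharpin, a part of the linear ubiquitin ligase, had 17.22, 19.30 and 16.36 FPKM in FCA and 13.21, 13.66 and 14.92 in AT01 (log2 fold change -0.32, adjusted p = 0.684). The list did not share the pattern of the 2 libraries, which were the 2 highest for 1 of its 31 genes (3.23%).

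Genes that NF-κB is known to switch on were described by a list of 33, of which 29 had a record and 25 were tested. Again 0 passed an adjusted p under 0.05 with limma in AT10, AT1 or AT01 against FCA, and 3, 6 and 3 had an unadjusted p under 0.05, beside the 11.9%, 11% and 6.6% of all records. Their median log2 fold change was 0.135 for AT10, -0.009 for AT1 and 0.002 for AT01, and 19, 12 and 13 of the 25 had a value above 0, beside the 48.2%, 53.2% and 50.3% of all records. Cxcl2, a chemokine for neutrophils, had 1.12, 1.25 and 2.57 FPKM in FCA and 3.36, 3.6 and 5.91 in AT10, with no overlap (log2 fold change 1.01, standard error 0.27, adjusted p = 0.272). Ptgs2, the inducible cyclooxygenase, had 40.76, 16.63 and 32.90 FPKM in FCA and 40.49, 66.17 and 97.96 in AT10 (log2 fold change 1.16, standard error 0.44, adjusted p = 0.403). With the limma values, these 2 genes met the study's own rule in AT10 beside 0.706% of all records. No other gene of the list did so against FCA at any dose.

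Vcam1, an adhesion molecule for leukocytes, was the 1 target whose 9 TCDCA libraries did not overlap with FCA, and is named after its values were seen. It had 3.64, 2.55 and 3.07 FPKM in FCA, 4.48, 4.85 and 4.85 in AT01, 5.7, 4.24 and 5.07 in AT1, and 4.01, 4.58 and 4.87 in AT10. Its log2 fold change was 0.49 in AT01, 0.56 in AT1 and 0.43 in AT10, with limma adjusted p-values of 0.571, 0.42 and 0.297. Over the 9 libraries it was 0.49 (standard error 0.09, unadjusted p = 0.000208, limma adjusted p = 0.201). Of the 31 pathway genes, 1, Cyld, likewise had no overlap, beside 2.86% of all records.

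Il6, a cytokine of arthritic joints, had 81.56, 107.81 and 128.11 FPKM in FCA and 109.33 to 204.56 in the 9 TCDCA libraries, 6 of which exceeded every FCA library (log2 fold change 0.55, standard error 0.19, adjusted p = 0.339 from limma). Cxcl1, a chemokine of the same kind as Cxcl2, had 441.22, 996.45 and 645.51 FPKM in FCA and 414.31, 410.94 and 322.68 in AT1, all below FCA (log2 fold change -0.79, adjusted p = 0.445). Csf1, a growth factor of macrophages, had 191.52, 183.83 and 79.37 FPKM in FCA and 66.02, 120.37 and 61.77 in AT1 (log2 fold change -0.83, adjusted p = 0.496). Ccl7, a monocyte chemokine, had 199.42, 795.16 and 887.18 FPKM in FCA and 262.58, 927.52 and 171.99 in AT01 (log2 fold change -0.58, adjusted p = 0.876), with high and low libraries in both groups. Tnf, the cytokine that classically activates the pathway, had at most 0.03 FPKM in any library.

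**Figure D4:**
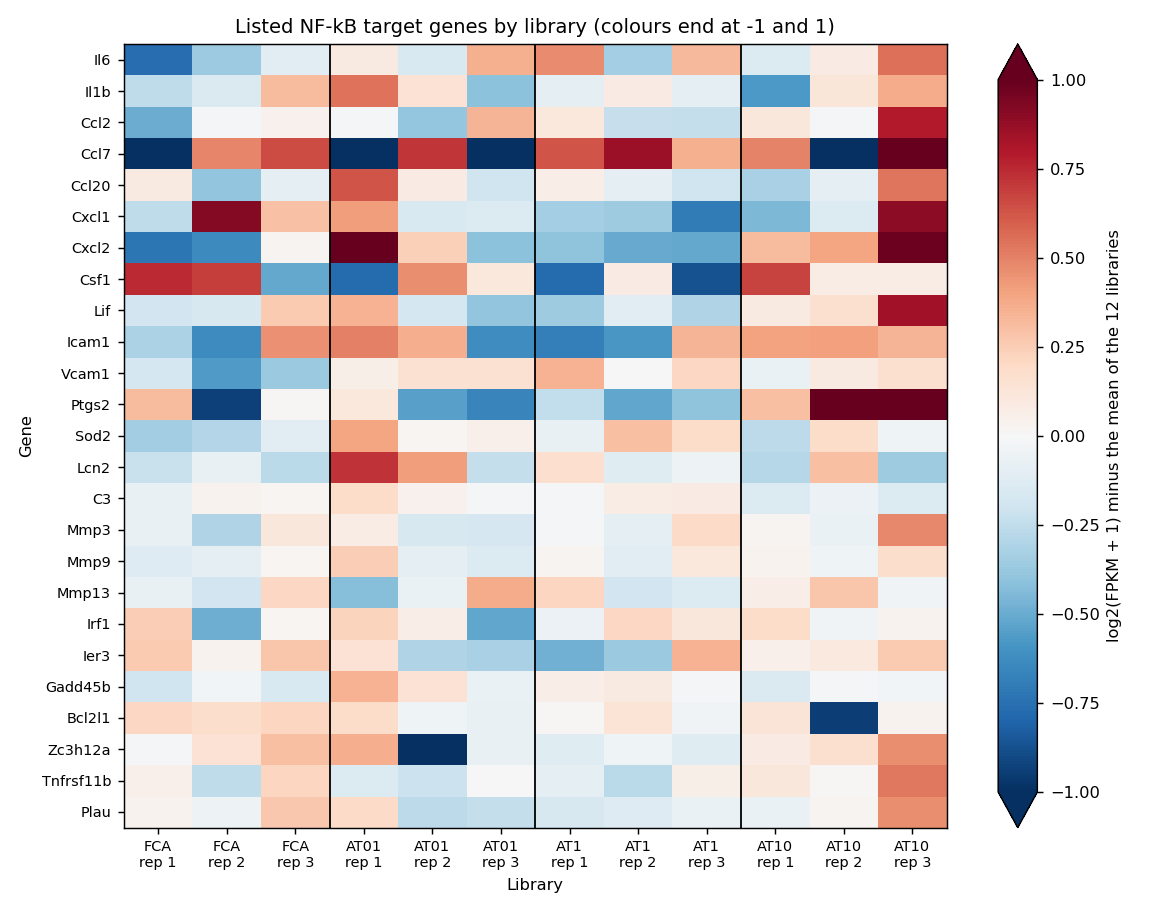
The 25 listed NF-κB target genes tested (rows) in the 12 libraries (columns, ordered by dose, with black lines between groups), coloured by log2(FPKM + 1) minus the mean of the gene, with colours ending at -1 and 1. AT10 replicate 3 and AT01 replicate 1 carry red cells for many genes, such as Cxcl2, Ccl20 and Lif, and their group neighbours are paler.

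As for the members, AT10 replicate 3 or AT01 replicate 1 was the highest library for 18 of the 25 targets (72.0%), and both were the 2 highest for 6 of them (24.0%), beside 26.6% and 3.22% of all records. Cxcl2 had 5.91 FPKM in AT10 replicate 3 and 7.31 in AT01 replicate 1, above the other 10 libraries. Ccl20 had 157.56 and 168.73 FPKM in these libraries and 82.33 to 115.79 in the others. Lif, a cytokine of the Il6 family, had 78.28 and 55.32 FPKM there and 32.74 to 52.18 in the others. The motif that opens with GGGA was in the windows of 5 of 24 targets, Il6, Ccl7, Cxcl1, Cxcl10 and Lcn2, and in 0 of 27 pathway genes. The motif that opens with GGGG was in 2 of the 24, Ccl20 and Cxcl2, and in 4 of the 27, Rel, Ikbkg, Traf3 and Tnip1. Windows were sought for all listed genes, and Cxcl10 and Rel were not among those tested. Whether a motif went with the pattern of these libraries was not tested.

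The cells carried fibroblast markers at every dose. The summed level of the 10 fibroblast markers with a record was 6740 to 7240 FPKM in FCA, 6390 to 7030 in AT01, 6900 to 7040 in AT1 and 5760 to 7240 in AT10, with the lowest sum in AT10 replicate 3. Of 12 listed markers, Col1a2 and Pdgfra had no record of that name. Of the 6 macrophage markers with a record, 4 had a mean under 1 FPKM, and the sums were 6.74 to 22.1 FPKM in FCA, 7.09 to 20.3 in AT01, 5.75 to 17.8 in AT1 and 18.5 to 21.5 in AT10. Most of these sums was Cd14, which ranged from 3.6 to 18.82 FPKM. The 7 endothelial markers summed to at most 0.24 FPKM and the 5 markers of T and B cells to at most 0.08 FPKM in any library, with Cd3e, Cd3d and Tie1 at 0 in all 12. The smooth muscle markers summed to 344 to 447 FPKM in FCA, 250 to 317 in AT01, 281 to 322 in AT1 and 181 to 339 in AT10. All 3 FCA sums thus lay above all 9 TCDCA sums, as the FCA libraries did for Nfkbie. Most of these sums was Acta2, with a mean of 245 FPKM. Acta2 and Smtn were each higher in every FCA library, a pattern that 1.9% of all records shared, whereas Myh11, Des and Cnn1 overlapped. The part of these markers in the values of the members was not tested. In bulk libraries, fewer cells of a type and less RNA per cell cannot be told apart.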

How the data were processed

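Poly(A) RNA of 12 FLS libraries was sequenced in pairs. FPKM values of each library, to 2 decimals, were deposited by the authors, who used HISAT2 for alignment and StringTie and Ballgown for assembly and quantification. The submitters' processing notes also name cutadapt and edgeR. Their genome build is not given in the sources used here, and the values hold no read counts per gene. FPKM was taken as log2(FPKM + 1), and the 11611 records whose mean reached 1 FPKM were fitted with limma 3.58.1 in R 4.3.3 (lmFit, eBayes with trend), 2 groups at a time, and with an F test over 4 groups. Two-sided exact permutation tests of the difference of means, correlations and motif searches were computed in Python 3.11.15 with NumPy 2.4.6 and pandas 2.3.3, and figures with Matplotlib 3.10.9. Scripts were tested on simulated data. The members and the lists were chosen with earlier results of these data known. All 10 members are reported. Of the lists, the genes passing an adjusted p under 0.05 and the 2 of largest absolute change against FCA are named. Vcam1, Cyld, Ccl20, Lif, Col3a1, Prg4, Smtn, Dcn, Des, Acta2, Myh11, Cnn1, Col1a1, Tnf, Cd14 and markers at 0 were named after their values were seen. Alternatives were another pseudocount (0.1), no filter, a minimum mean of 10 FPKM, 1 fit over all libraries, median-of-ratios scaling, sums by gene name, the replicate number as a block and each library left out. The removal of AT10 replicate 3 with AT01 replicate 1 was added after seeing the data.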

Additional observations from a re-analysis of the deposited data

Results flagged for a closer look

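Nfkbiz had a second record, which the comparisons did not use. It was listed at 0 in all 3 FCA and all 3 AT1 libraries and in AT01 replicates 2 and 3, and had 0.18, 0.12 and 0.63 FPKM in AT10 replicates 1, 2 and 3 and 1.40 FPKM in AT01 replicate 1. It is given here because a signal appeared in some TCDCA libraries above the level of the control libraries. Its mean of 0.1942 FPKM was under the 1 FPKM asked for in the main comparisons, so these are values near the floor. Its 2 highest libraries were the same as those of the main Nfkbiz record. A ratio to controls listed at 0 was not computed.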

How the results depend on the processing

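The count of members under an adjusted p of 0.05 was 0 in every comparison under each alternative run, and the lowest adjusted p of a member was 0.198. Of 574 recomputed log2 fold changes of members against FCA, 36 changed sign, all for values of at most 0.21 in size. Of these, 35 came from leaving out libraries, and 1, Relb in AT1, turned from 0.00 to -0.01 under median-of-ratios scaling. Relb in AT1 ran from -0.05 to 0.08 with a library left out. The cause was not tested. With each library left out in turn, Nfkb1 ran from -0.08 to 0.08 in AT1, -0.07 to 0.1 in AT01 and -0.02 to 0.13 over all TCDCA libraries. Nfkb2 ran from -0.02 to 0.11 in AT10. Rela ran from -0.09 to 0.36 in AT10, -0.18 to 0.24 in AT1 and -0.03 to 0.11 over all TCDCA libraries. Relb ran from -0.22 to 0.09 in AT01 and -0.01 to 0.12 over all TCDCA libraries. Nfkbia ran from -0.09 to 0.26 in AT1. Nfkbib ran from -0.16 to 0.11 in AT10 and -0.22 to 0.02 in AT01. Nfkbiz ran from -0.04 to 0.3 in AT10, -0.25 to 0.05 in AT01 and -0.13 to 0.07 over all TCDCA libraries. Tnfaip3 ran from -0.15 to 0.33 in AT01. Without both AT10 replicate 3 and AT01 replicate 1, chosen after seeing the data, the values over all TCDCA libraries became -0.02 for Nfkb1, -0.04 for Rela, -0.06 for Relb and -0.17 for Nfkbiz. A minimum mean of 10 FPKM left 6 of the members in the test.

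The study names the replicate numbers as repeats and does not say whether libraries of the same number shared a rat, batch or day. It does refer to the FLS of the RNA-seq as a batch. The values did not pair the libraries by number. Deviations from the group means correlated between -0.105 and 0.0942 in 18 same-numbered pairs of libraries and between -0.154 and 0.149 in 36 others, and with the replicate number as a block 0 members passed in each comparison, the lowest adjusted p over all TCDCA libraries being 0.327. The study reports total reads by library but not by gene, so the counting error of low members such as Tnfaip3 was not computed.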
